A study of Mus musculus with 15 samples.

Results

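The macrophage and myeloid genes described here are 32 genes that mark or serve phagocytes, out of 14272 named genes in the deposited table. They were chosen by gene symbol, not by their values: 31 were found under their current symbol, and Adgre1, which encodes the macrophage surface protein F4/80, under its older symbol Emr1. All 32 passed the filter on low values and are reported. The RNA came from quadriceps of male DBA/2J-mdx mice, which lack dystrophin and model Duchenne muscular dystrophy, so that every group carries the dystrophic background. Prednisone is a glucocorticoid drug. Vehicle libraries come from mice injected intraperitoneally with DMSO, its solvent, on all 7 days of the week; in the weekly regimen 1 of those injections held prednisone at 1 mg/kg and 6 held vehicle, and in the daily regimen all 7 held prednisone at 1 mg/kg. Each regimen has 5 libraries. The age is stated as 6 months in the protocol and as about 7 months for each sample, and the sources used here do not give the length of treatment. Separate animals are not stated either, and p-values therefore cover only how far these libraries vary, and that variation may be technical.

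Macrophages enter dystrophic muscle in large numbers, where they clear dead fibres and release signals that act on fibroblasts and on muscle stem cells. They arise from blood monocytes and from cells resident in the tissue, and they change their surface receptors, lysosomal enzymes and secreted proteins as they mature. Glucocorticoids are known to lower many inflammatory transcripts in these cells and, in human monocytes, to raise the scavenger receptor CD163.

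Levels are in CPM, read counts brought to a common library total, and a change is a difference on the log2(CPM + 0.5) scale with its standard error (SE). A gene was called where limma's adjusted p (Benjamini-Hochberg, BH, over all 14059 genes tested) was under 0.05. Depth was 2780768 to 11052552 reads per library, so that 3 reads correspond to between 0.271 and 1.08 CPM. Weekly 4 was the shallowest and had 0.57% of its reads in mt-Rnr2, which is transcribed from the mitochondrial genome; the other weekly libraries had 6.23% to 9.44%. Daily 3 had 20.6% of its reads in Gm26924. The biological coefficient of variation was 29.4% among weekly, 9.4% among daily and 3.55% among vehicle libraries. The labelled tissue showed in the fibre genes, whose 10 listed members summed to 73200 to 75300 CPM in vehicle libraries.

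The promoters of 2 complement genes and of Ctss are shown because these members moved apart in the daily libraries, as described further on, and because each of the 3 windows holds the letters AGGAAGT, the core of many sites of PU.1, the transcription factor of the myeloid lineage that Spi1 encodes. The sequences come from RefSeq on GRCm38.p6, each running from 250 bases before to 50 bases after the annotated start, 5′ to 3′ on the strand of the gene, and the capitals mark the motif, which reads ACTTCCT here because it lies on the opposite strand. C1qb lies at chr4:136886151-136886450 on the minus strand, C1qc at chr4:136892865-136893164 on the minus strand, and Ctss at chr3:95526536-95526835 on the plus strand.
C1qb: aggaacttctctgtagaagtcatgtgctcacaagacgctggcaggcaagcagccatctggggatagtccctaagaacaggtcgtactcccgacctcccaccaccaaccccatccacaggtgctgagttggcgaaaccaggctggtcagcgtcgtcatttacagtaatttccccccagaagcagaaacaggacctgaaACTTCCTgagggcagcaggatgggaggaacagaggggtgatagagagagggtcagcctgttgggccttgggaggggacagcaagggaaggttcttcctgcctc
C1qc: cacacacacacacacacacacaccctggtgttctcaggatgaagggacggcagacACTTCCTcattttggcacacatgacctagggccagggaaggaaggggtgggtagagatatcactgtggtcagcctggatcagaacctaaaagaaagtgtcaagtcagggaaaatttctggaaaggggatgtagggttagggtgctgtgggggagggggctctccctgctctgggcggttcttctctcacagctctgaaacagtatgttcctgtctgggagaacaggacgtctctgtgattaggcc
Ctss: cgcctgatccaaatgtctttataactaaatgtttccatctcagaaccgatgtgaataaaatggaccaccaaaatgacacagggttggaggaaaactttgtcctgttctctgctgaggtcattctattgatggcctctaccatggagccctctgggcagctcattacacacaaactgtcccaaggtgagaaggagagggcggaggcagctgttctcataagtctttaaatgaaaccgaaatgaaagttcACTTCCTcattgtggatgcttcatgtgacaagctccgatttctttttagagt
The first base of the match lies at -53 in C1qb, -195 in C1qc and -2 in Ctss, relative to the start. RefSeq windows matched 25 of the 32 members, some with several starts. AGGAAGT, searched on both strands, occurs in 8 of these 25 genes (Ptprc, Mrc1, Ctss, Fcgr1, Cd53, C1qb, C1qc and Lyz2). Counted by window, it occurs in 9 of the members' 28 windows and in 9.35% of all 32851 windows of this length. The longer GAGGAAGT, which contains it, occurs in 3 of the 25 genes (Ctss, Cd53 and C1qc), in 3 of the 28 windows and in 3.2% of all windows. ACANNNTGT, a loose form of the glucocorticoid receptor's element, occurs in 5 genes (Fcgr3, Ctss, C1qc, Gpnmb and Lyz2), in 6 of the 28 windows and in 6.85% of all windows. A match describes letters in a window and is not a measured binding site.

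In vehicle muscle the members stood at very different levels. Per kilobase of annotated exon, the vehicle mean was highest for Lyz2, the lysozyme of macrophages and granulocytes, at 134 CPM per kb. Ctss, a lysosomal cysteine protease that trims antigens, stood at 26.5 CPM per kb and C1qa, a chain of complement C1q, at 23.6 CPM per kb. The lowest were Aif1, the actin-binding protein IBA1, at 0.814 CPM per kb and Fcgr1, the high-affinity IgG receptor, at 0.898 CPM per kb. The 5 vehicle libraries lay close together, with a summed level of the 32 members between 777 and 825 CPM.

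The weekly libraries did not. Their summed levels were 385, 880, 879, 3750 and 994 CPM in weekly 1 to 5, so that weekly 1 lay below and weekly 4 far above every vehicle library, while weekly 2, 3 and 5 lay near each other. The median member stood 0.89 below the vehicle mean in weekly 1 (-0.89 on the log2 scale) and 1.92 above it in weekly 4, against 0.13, 0.30 and 0.37 in weekly 2, 3 and 5. The daily libraries held 797, 799, 507, 957 and 1110 CPM, and daily 3, the lowest, had a median member at -0.60, close to the median of all genes in that library (-0.53). With TMM scaling, which sets libraries level by a trimmed mean of gene ratios, the median member of daily 3 stood at -0.04, that of weekly 1 at -0.92 and that of weekly 4 at 1.62.

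**Figure D1:**
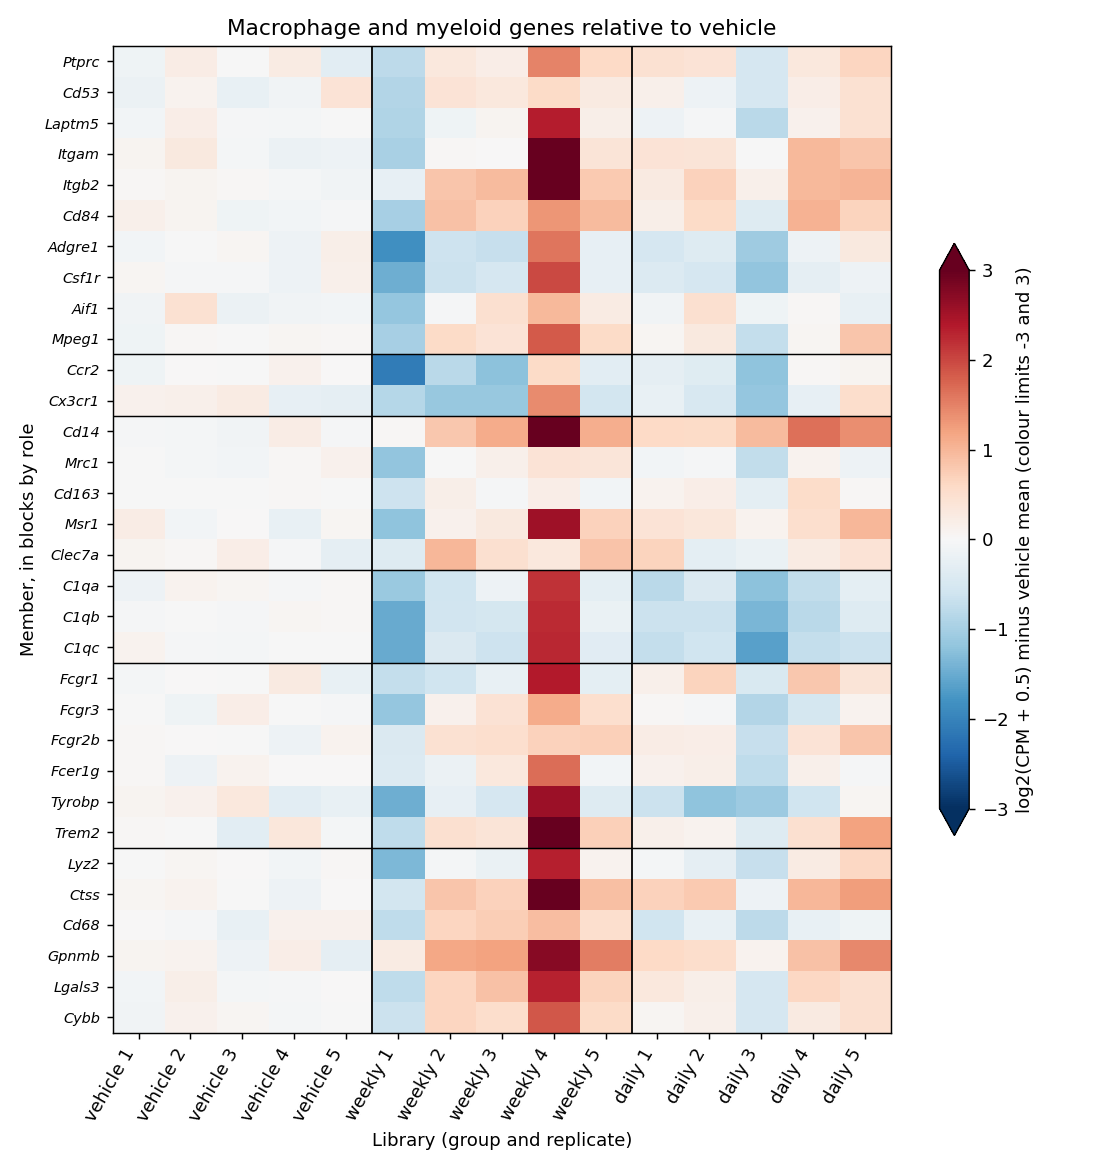
Each row is a member and each column a library; colour gives log2(CPM + 0.5) minus the mean of the 5 vehicle libraries, cut at -3 and 3, and black lines part the groups and the role blocks. Weekly 4 is high in nearly every row, weekly 1 low, and the complement rows are low in all 5 daily libraries.

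Weekly 4 was the highest of the 15 libraries for 29 of 32 members, and also for 37.9% of all genes tested (27 members and 28.3% of all genes with TMM scaling). The 3 exceptions were Cd163, Clec7a and Fcgr2b. Relative to the vehicle mean, weekly 4 ranged from 1.16-fold for Cd163, the haemoglobin scavenger receptor, to 17.2-fold for Ctss. Between these lay Cd14, the co-receptor for lipopolysaccharide, at 14.3-fold and Trem2, a lipid-sensing receptor, at 14.2-fold. The integrin chain genes Itgb2 and Itgam stood at 10.2-fold and 8.06-fold.

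Weekly 1 was the lowest of the 15 libraries for 24 members, against 5.81% of all genes tested (29 members and 9.15% with TMM scaling). It ranged from 0.208 times the vehicle mean for Ccr2, the receptor that brings monocytes into tissue, to 1.19 times for Gpnmb. The share of genes that weekly 1 put lowest was thus far smaller over all genes than over the members, whereas weekly 4 was highest for a large share of everything measured. Other lists were also far from vehicle in weekly 4. The 10 fibroblast markers, all measured, summed to 24900 CPM there, against 2010 to 2230 in vehicle, 2190 in weekly 1 and 2560 to 3230 CPM in weekly 2, 3 and 5. The 8 measured of 9 regeneration markers summed to 775 CPM in weekly 4 and to 131 to 145 CPM in vehicle libraries. The part of these cell types, of depth and of RNA quality in the members' levels of weekly 1 and weekly 4 was not tested. In bulk tissue, fewer cells of a type and less RNA per cell cannot be told apart.

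**Figure D2:**
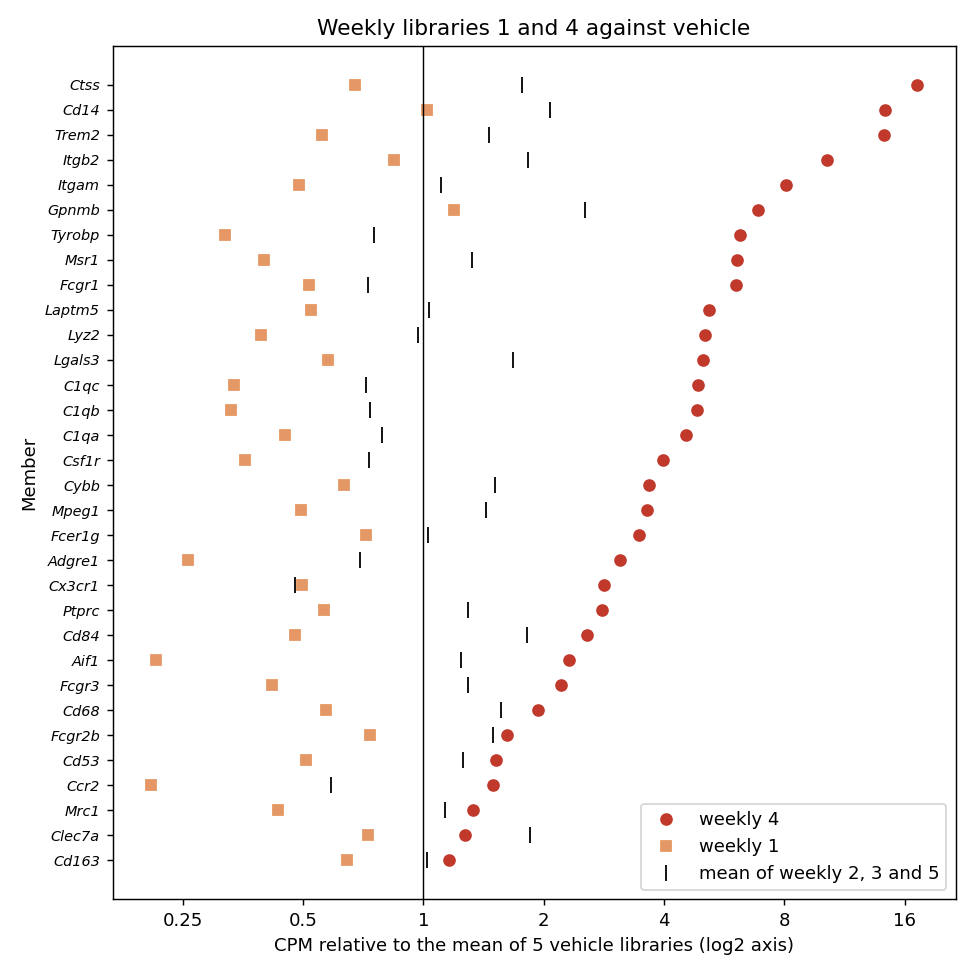
The horizontal log2 axis gives CPM relative to the mean of the 5 vehicle libraries for weekly 4 (circles), weekly 1 (squares) and the mean of weekly 2, 3 and 5 (ticks), for each of 32 members ordered by weekly 4. Weekly 4 runs from 1.16 to 17.2 times vehicle and weekly 1 from 0.208 to 1.19 times.

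Across all libraries, weekly prednisone against vehicle gave 1 member that rose and 0 that fell, where 6.99% of all genes rose and 1.07% fell. With TMM scaling 5.73% of all genes rose and 4.18% fell. In limma 7 members had an unadjusted p under 0.05, a count given without the share over all genes. On recovered reads 4 of 32 members were called by edgeR (Itgb2, Gpnmb, Ctss and Cd14; 11.3% of all genes). DESeq2 called 3 of the 24 members to which it gave a p (Itgb2, Gpnmb and Cd14; 13.6% of genes with a p). In every comparison it gave no p for the other 8, which are Trem2, Csf1r, Tyrobp, Itgam, Ctss and the C1q genes. The median change over the 32 members was 0.29, beside 0.17 over all genes, and with TMM scaling it was 0.12 beside 0.01. The called member was Gpnmb, the gene of a transmembrane glycoprotein of lysosomes and phagosomes (chromosome 6, 49036546 to 49070929, plus strand of GRCm38). Only its RNA was measured, so the values do not show whether this strain makes functional protein. Gpnmb measured 9.49, 9.72, 8.01, 10.4 and 7.35 CPM in vehicle 1 to 5 and 10.7, 20.5, 21.1, 61.9 and 26.8 CPM in weekly 1 to 5. All 5 weekly libraries lay above all 5 vehicle libraries, weekly 1 only just; Gpnmb alone among the members did so, against 11.8% of all genes, and 0 members lay wholly below (1.66% of all genes). Its vehicle mean was 8.99 ± 1.27 CPM and its weekly mean 28.2 ± 19.7 CPM (SD, n = 5 each), a log2 change of 1.37 (SE 0.31, limma adjusted p = 0.00764, BH). The call held under every alternative run, with log2 changes from 0.89 to 1.65.

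Weekly 1 and weekly 4 set the width of the other estimates. Without them, 11 members rose and 2 fell, with 10.7% of all genes rising and 1.39% falling. Those 2 libraries are the extremes of the members' own levels, so leaving them out narrows the weekly spread by construction, and the count describes weekly 2, 3 and 5 only. In those 3 libraries, 12 members lay wholly above the vehicle range and 7 wholly below it, where 25.9% and 3.92% of all genes did. Without weekly 4 alone, 3 members rose and 7 fell (9.39% and 1.83% of all genes); without weekly 1 alone, 9 rose and 0 fell (9.11% and 0.992%). Of the 7 that fell without weekly 4, Ccr2 and Cx3cr1 were the members still called without weekly 1 as well. With TMM scaling and neither library, 9 rose and 7 fell (10.2% and 8.44%). The direction in which the members lean against vehicle therefore changes with the library left out. Gpnmb, Itgb2 and Cd14 rose in each of these fits, and of them limma called only Gpnmb with all libraries.

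Among the 10 leukocyte and lineage proteins, limma called no member in weekly against vehicle with all libraries. Without weekly 1 and weekly 4, 3 of them rose (Itgb2, Cd84 and Mpeg1). Itgb2, the β2 integrin chain by which leukocytes adhere (chromosome 10, 77530252 to 77565708, plus strand), measured 16.7, 17.3, 16.8, 15.6 and 15.1 CPM in vehicle libraries. It measured 13.7, 29.2, 31.9, 166 and 28.2 CPM in weekly 1 to 5, below every vehicle library in weekly 1 and above every vehicle library in the other 4. Its log2 change was 1.12 (limma adjusted p = 0.0756, BH; SE 0.39) with all libraries and 0.85 (SE 0.18, limma adjusted p = 0.000141, BH) without weekly 1 and weekly 4. With all libraries Itgb2 was called on recovered reads by edgeR (1.38, adjusted p = 0.0495, BH) and by DESeq2 (1.46, adjusted p = 0.0297, BH). Cd84, an adhesion receptor of the SLAM family, went from 13.4 ± 1.17 CPM in vehicle to 6.41, 25.2, 22.0, 34.5 and 26.1 CPM in weekly 1 to 5, and to 15.2, 20.0, 10.2, 28.0 and 21.5 CPM in daily 1 to 5. Weekly 1 and daily 3 lay below the vehicle range and the other prednisone libraries above it. With TMM scaling daily 3 stood at 15.7 CPM, above the vehicle maximum of 15.1 CPM. Mpeg1, a pore-forming protein of phagosomes, lay at 35.7 to 40.2 CPM in vehicle and 51.7 to 57.8 CPM in weekly 2, 3 and 5. With TMM scaling and neither weekly 1 nor weekly 4, Mpeg1 was not called (0.33, limma adjusted p = 0.12, BH).

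Unlike Mpeg1, the macrophage markers Csf1r and Adgre1 of the same group did not follow Itgb2. Csf1r, the receptor for the growth factors that keep macrophages alive (chromosome 18, 61100598 to 61132149, plus strand, overlapping Hmgxb3), lay at 60.8 to 74.1 CPM in vehicle libraries. It measured 24.0, 43.0, 47.2, 268 and 57.0 CPM in weekly 1 to 5, so that weekly 4 was above every vehicle library and the other 4 were below all of them. Adgre1 likewise measured 4.81, 11.9, 11.3, 57.9 and 15.6 CPM in weekly libraries, against 16.8 to 21.1 CPM in vehicle. Both fell without weekly 4, and neither was called with all libraries, where the log2 changes were -0.17 (SE 0.38) for Csf1r and -0.36 (SE 0.39) for Adgre1. Without weekly 1 as well, neither was called: Csf1r stood at -0.46 (SE 0.16, limma adjusted p = 0.0509, BH) and Adgre1 at -0.52 (SE 0.19, limma adjusted p = 0.0577, BH), against -0.85 without weekly 4 alone. With TMM scaling and neither library, both fell: Csf1r by 0.64 (limma adjusted p = 3.98e-05, BH) and Adgre1 by 0.70 (limma adjusted p = 0.00229, BH). Whether they are called without weekly 1 and weekly 4 therefore depends on the scaling. Csf1r and Adgre1 were given by library after their values were seen. Of the rest of the group, Ptprc (the pan-leukocyte phosphatase CD45), Cd53, Laptm5, Itgam and Aif1 were called in weekly against vehicle in none of these fits.

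The 2 chemokine receptors were lower in the weekly libraries other than weekly 4. Ccr2 (chromosome 9, 124101950 to 124113557, plus strand) measured 14, 15.5, 15.2, 17 and 15.4 CPM in vehicle and 3.20, 8.60, 6.24, 23.0 and 12.3 CPM in weekly 1 to 5. Its level in weekly 4 exceeded every vehicle library, and the other 4 weekly libraries lay below all of them. The log2 change was -0.78 (limma adjusted p = 0.151, BH; SE 0.33) with all libraries and -0.79 (SE 0.20, limma adjusted p = 0.00327, BH) without weekly 1 and weekly 4. Cx3cr1, the fractalkine receptor of patrolling monocytes and resident macrophages, measured 5.23, 5.38, 5.72, 3.98 and 3.84 CPM in vehicle and 2.40, 1.90, 1.91, 13.7 and 3.10 CPM in weekly 1 to 5. In daily 1 to 5 Cx3cr1 measured 4.02, 3.26, 1.86, 3.98 and 7.07 CPM, inside the vehicle range and on both sides of it. Its gene model overlaps 5 protein-coding genes, so its counts are uncertain. In daily libraries Ccr2 measured 12.7, 11.8, 6.35, 15.7 and 16.2 CPM, overlapping the vehicle range.

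Among the 5 scavenger, lectin and pattern receptors, Cd14 (chromosome 18, 36725067 to 36726798, minus strand) measured 6.09, 5.97, 5.72, 7.41 and 6.10 CPM in vehicle libraries. It measured 6.41, 11.3, 14, 89.5 and 13.8 CPM in weekly 1 to 5 and 9.69, 9.51, 12.5, 20.7 and 17.3 CPM in daily 1 to 5. Every daily library and all weekly libraries but weekly 1 lay above the vehicle range. The weekly log2 change of 1.36 (SE 0.42) just missed the threshold (limma adjusted p = 0.0506, BH), and edgeR called it (log2 change 1.69, adjusted p = 0.0434, BH). Clec7a, the β-glucan receptor dectin-1, measured 2.27, 6.70, 4.53, 3.96 and 6.06 CPM in weekly 1 to 5, against 3.29, 3.16, 3.66, 2.99 and 2.49 CPM in vehicle 1 to 5, and was called with all libraries in no comparison. It rose without weekly 1 and weekly 4 (0.78, SE 0.24, limma adjusted p = 0.017, BH), and daily 1 to 5 held 5.26, 2.45, 2.63, 3.77 and 4.30 CPM. The mannose receptor Mrc1 and the scavenger receptors Cd163 and Msr1 were not called in weekly against vehicle with all libraries or without those 2. Cd163 lay between 27.9 and 29.1 CPM in vehicle and 26.8 and 32.7 CPM in weekly 2 to 5. In weekly 1 it stood at 18.2 CPM, the lowest of the 15 libraries.

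Of the 6 lysosomal, lectin and effector proteins, 5 rose without weekly 1 and weekly 4, and Lyz2 did not. Cd68, a lysosomal glycoprotein used as a macrophage marker (chromosome 11, 69664213 to 69666153, minus strand), measured 12.7, 12.3, 10.8, 13.8 and 13.8 CPM in vehicle libraries. In weekly 1 to 5 it measured 7.21, 19.9, 21.5, 24.5 and 18.1 CPM, above the vehicle range in all but weekly 1. Compared with vehicle its log2 change was 0.41 (limma adjusted p = 0.297, BH; SE 0.24) with all libraries and 0.63 (SE 0.19, limma adjusted p = 0.0133, BH) without weekly 1 and weekly 4. Lgals3, the β-galactoside-binding lectin galectin-3, lay at 31.6 to 37.8 CPM in vehicle and 52.5 to 62.1 CPM in weekly 2, 3 and 5. Cybb, the catalytic chain of the phagocyte NADPH oxidase, lay at 18.4 to 21.9 CPM and 29.0 to 31.4 CPM in the same libraries. Lyz2, whose reads may be shared with its near-identical neighbour Lyz1, lay at 166 to 185 CPM in vehicle and at 153 to 189 CPM in weekly 2, 3 and 5.

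**Figure D3:**
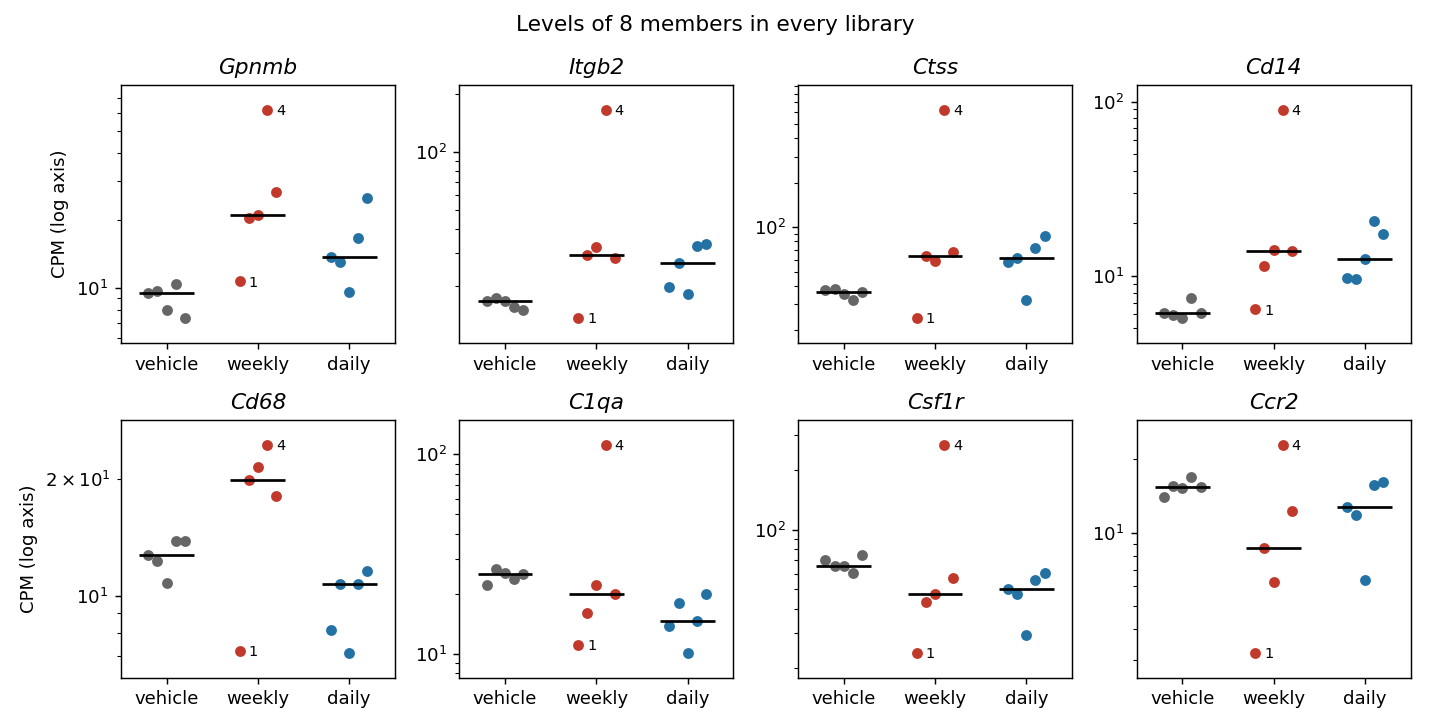
CPM on a log axis for 8 members in each of the 15 libraries, with a bar at the median of each group and the numbers 1 and 4 beside weekly 1 and weekly 4. Gpnmb is the member whose 5 weekly points all clear the vehicle points, and the 5 daily points of C1qa and Csf1r lie below the vehicle points.

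Daily prednisone against vehicle, fitted with all 15 libraries, called 0 members, where 1.76% of all genes rose and 2.13% fell (5.61% and 3.47% with TMM scaling). Limma gave 2 members (Gpnmb and Cd14) with an unadjusted p below 0.05, where 2335 of 14059 genes had one. On recovered reads, edgeR also called 0 (9.47% of all genes). DESeq2 called 0 of the 24 members with a p (11.4% of genes with a p), which leave out Trem2, Csf1r, Tyrobp, Itgam, Ctss and the C1q genes. The members' median change was 0.06, beside -0.08 over all genes (0.15 beside 0.00 with TMM scaling). In that fit the weekly libraries enter the shared estimate of the spread. When the daily and vehicle libraries were fitted alone, 5 members rose and 5 fell, beside 4.87% of all genes rising and 7.38% falling; the log2 changes are the same by construction, and the standard errors are smaller. The 5 that rose were Itgb2, Gpnmb, Itgam, Ctss and Cd14, and the 5 that fell were Csf1r, Tyrobp, C1qa, C1qb and C1qc. The same 10 were called, in the same directions, with TMM scaling and no weekly 1 or weekly 4, where 9 members rose and 6 fell (13.4% and 11.6% of all genes). Without overlap, 2 members lay above vehicle in all 5 daily libraries (Itgb2 and Cd14; 2.45% of all genes did) and 4 below (Csf1r and the C1q genes; 8.82% of all genes). Without daily 3, 11 lay above and the same 4 below (13.7% and 8.85% of all genes), and with TMM scaling of all 5, 7 lay above and 3 below (10.1% and 9.6%).

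The 3 C1q genes, which lie side by side on chromosome 4 and encode the chains of the first complement component, were 3 of the 5 members that fell in the fit of the daily and vehicle libraries alone. C1qa (136895917 to 136898803, minus strand) measured 22.0, 26.5, 25.5, 23.8 and 25.1 CPM in vehicle and 13.8, 17.9, 10.1, 14.6 and 20.0 CPM in daily 1 to 5. C1qb (136880129 to 136886187, minus strand) measured 15.8, 15.9, 15.8, 16.8 and 16.5 CPM in vehicle and 10.2, 10.2, 5.89, 9.0 and 12.2 CPM in daily 1 to 5. C1qc (136889804 to 136893065, minus strand) measured 20.7, 18.7, 18.3, 19.1 and 18.9 CPM in vehicle and 11.5, 12.4, 5.89, 11.5 and 12.1 CPM in daily 1 to 5. In each of the 3 genes every daily library lay below every vehicle library, with daily 3 lowest. With TMM scaling the groups also did not overlap, and the lowest was daily 1 for C1qa, daily 4 for C1qb and daily 3 for C1qc. The log2 change of C1qc was -0.86, with SE 0.42 and limma adjusted p = 0.307 (BH) in the fit of all libraries, and SE 0.16 and adjusted p = 7.14e-06 in the fit of the 10. For C1qa and C1qb the changes were -0.70 and -0.77, with adjusted p = 0.000239 and 0.000117 (limma, BH) in the fit of the 10. In weekly 1 to 5 C1qb measured 5.34, 10.7, 11, 78.4 and 13.9 CPM and C1qc 6.41, 14.1, 12.2, 93.1 and 15.1 CPM, low in 4 libraries and high in weekly 4. C1qa measured 11.1, 16, 22.2, 112 and 19.9 CPM, so that its log2 change from vehicle was 0.00 (SE 0.38) with weekly 4 and -0.54 without it (limma adjusted p = 0.0414, BH). Without weekly 1 as well it was -0.35 and not called (limma adjusted p = 0.212, BH). C1qb and C1qc were not called there either (-0.44 and -0.46, limma adjusted p = 0.119 and 0.0946, BH). With TMM scaling of the same libraries C1qa, C1qb and C1qc all fell (-0.53, -0.62 and -0.64, limma adjusted p = 0.00317, 0.000749 and 0.000277, BH).

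Csf1r measured 50.4, 47.5, 29.3, 55.9 and 60.3 CPM in daily 1 to 5, each below the lowest vehicle library (60.8 CPM), daily 5 only just. Its log2 change was -0.50 (limma adjusted p = 0.00672, BH; SE 0.14) in the fit of the 10 libraries. With TMM scaling its daily and vehicle ranges overlapped. Tyrobp, the adaptor DAP12 that carries signals from Trem2 and related receptors, measured 8.40, 8.66, 9.96, 6.19 and 6.67 CPM in vehicle and 4.85, 3.12, 3.41, 5.02 and 8.18 CPM in daily 1 to 5. Daily 5 lay within the vehicle range and the other 4 below it, for a log2 change of -0.70 (SE 0.19, limma adjusted p = 0.00379, BH) in the fit of the 10. In weekly 1 to 5 Tyrobp measured 2.54, 6.60, 5.44, 49.3 and 5.93 CPM, high in weekly 4 alone. Trem2 itself measured 8.28, 7.96, 6.41, 10.4 and 7.69 CPM in vehicle and 9.0, 8.69, 6.04, 11.5 and 19.3 CPM in daily libraries, which overlap. In weekly 1 to 5 it measured 4.54, 11.4, 10.7, 115 and 13.5 CPM, below the vehicle range in weekly 1 and above it in the others.

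The 5 members that rose in that fit are integrin chains, a pattern receptor and lysosomal proteins. Itgb2 measured 19.8, 26.6, 18.3, 32.4 and 33.4 CPM in daily 1 to 5, above every vehicle library, for a log2 change of 0.62 (SE 0.16, limma adjusted p = 0.00144, BH) in the fit of the 10. Itgam, the αM chain that pairs with it and overlaps Gm49368, had 12.3 to 17 CPM in vehicle and 18.7, 18.3, 13.8, 27.8 and 24.9 CPM in daily 1 to 5, with daily 3 inside the vehicle range. Cd14 rose by 1.04 (SE 0.18, limma adjusted p = 1.96e-07, BH). Ctss (chromosome 3, 95526786 to 95556403, plus strand) measured 37.7, 38.4, 35.4, 32.1 and 36.3 CPM in vehicle and 57.9, 61.8, 32.1, 72.0 and 86.9 CPM in daily 1 to 5. In weekly 1 to 5 it measured 24.3, 64.1, 58.7, 620 and 67.7 CPM. Daily 3 lay at the bottom of the vehicle range and the other 4 daily libraries above it, for a log2 change of 0.71 (SE 0.14, limma adjusted p = 3.32e-05, BH) in the fit of the 10. Gpnmb measured 13.7, 13, 9.60, 16.7 and 25.2 CPM in daily libraries, again with daily 3 inside the vehicle range. These positions of daily 3 are on the deposited scale. With TMM scaling daily 3 lay above every vehicle library for Itgam (21.1 CPM), Ctss (49.1 CPM) and Gpnmb (14.7 CPM). Itgam and Ctss were given by library after their values were seen.

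The remaining Fc receptors and adaptors are Fcer1g, Fcgr2b, Fcgr1 and Fcgr3. Fcer1g, the shared γ chain of Fc receptors, measured 4.38, 3.75, 4.58, 4.31 and 4.30 CPM in vehicle, 3.07, 3.71, 5.44, 14.7 and 4.00 CPM in weekly 1 to 5 and 4.71, 4.89, 2.32, 4.81 and 4.16 CPM in daily 1 to 5. Its ranges overlap in all 3 groups. Fcgr2b, the inhibitory IgG receptor, measured 19.7, 19.4, 18.9, 17.1 and 20.5 CPM in vehicle, 14, 26.5, 27.5, 30.9 and 31.5 CPM in weekly 1 to 5 and 22.3, 22.0, 11.6, 25.5 and 34.2 CPM in daily 1 to 5. Weekly 1 and daily 3 lay below the vehicle range and the other 8 prednisone libraries above it. With TMM scaling daily 3 stood at 17.8 CPM, within the vehicle range of 17.6 to 20.8 CPM. Fcgr1, Fcgr3 and Fcgr2b, the IgG receptors, share sequence with each other, so their counts are uncertain. None was called in either comparison with vehicle over all libraries. Fcgr2b rose in weekly against vehicle without weekly 1 and weekly 4 (0.56, SE 0.19, limma adjusted p = 0.0307, BH). With TMM scaling of those libraries it was not called (0.38, limma adjusted p = 0.0674, BH).

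**Figure D4:**
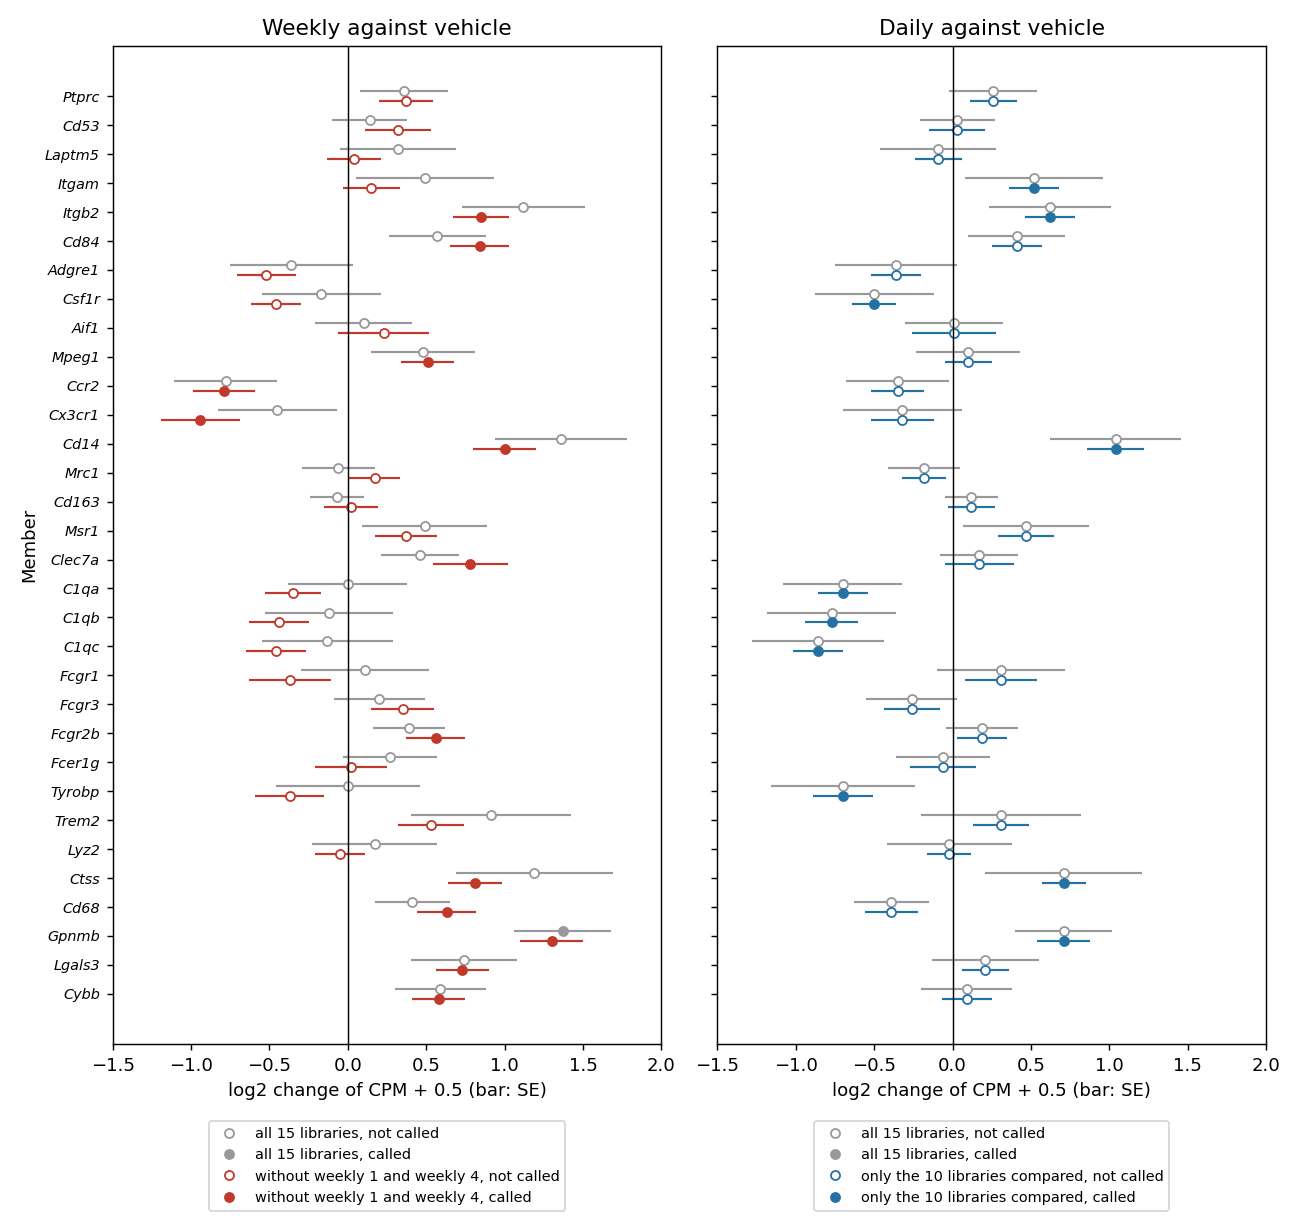
Log2 change of CPM + 0.5 with SE bars for each member, weekly against vehicle (left) and daily against vehicle (right); grey marks the fit of all 15 libraries, colour the fit without weekly 1 and weekly 4 (left) or with the 10 daily and vehicle libraries alone (right), and filled points were called. On the right the points coincide and the bars shrink; on the left 11 rising and 2 falling members are filled.

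Daily against weekly prednisone called 1 member that fell, Cd68, and 0 that rose, beside 8.24% of all genes that fell and 0.484% that rose; with TMM scaling 2.64% fell and 2.08% rose. Limma gave 2 members at an unadjusted p under 0.05 (Cd68 and Gpnmb), again without the share over all genes. The members' median change was -0.32, beside -0.24 over all genes, and with TMM scaling -0.06 beside 0.01. Cd68 measured 8.17, 10.7, 7.13, 10.7 and 11.6 CPM in daily 1 to 5. These lay below weekly 2 to 5 and overlapped weekly 1 (7.21 CPM) and the vehicle libraries. The log2 change was -0.80 (limma adjusted p = 0.0409, BH; SE 0.24), and -0.54 with TMM scaling (adjusted p = 0.163). The fit of the 2 groups alone and edgeR did not call it (adjusted p = 0.142 and 0.0877). Without weekly 1 and weekly 4, 5 members fell (Cybb, Cd68, Gpnmb, Lgals3 and Fcgr3; 13.3% of all genes fell), and with TMM scaling as well, Cd68 alone fell and 5 rose (Cd163, Fcgr1, Itgam, Ccr2 and Cx3cr1; 6.13% of all genes rose and 7.06% fell). Cd163 rose by 0.45 (SE 0.12, limma adjusted p = 0.0393, BH) with TMM scaling of all libraries, where edgeR and DESeq2 also called it. On the deposited scale its change was 0.19 (SE 0.17), with means of 27.4 ± 5.82 CPM (weekly) and 31.3 ± 6.76 CPM (daily; SD, n = 5 each).

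Ratios of members within a library do not depend on how libraries are scaled to each other. They were formed after the values were seen and are given as a description, with no test. Ctss per C1qa was 1.71, 1.45, 1.39, 1.35 and 1.45 in vehicle 1 to 5, 2.19, 4.01, 2.64, 5.54 and 3.41 in weekly 1 to 5, and 4.18, 3.45, 3.18, 4.91 and 4.35 in daily 1 to 5. All 10 prednisone libraries, weekly 1, weekly 4 and daily 3 among them, lay above the vehicle range. Cd68 per Cd163 was 0.397, 0.621, 0.784, 0.747 and 0.673 in weekly 1 to 5 and 0.385 to 0.490 in vehicle. In daily libraries it was 0.271, 0.329, 0.309, 0.256 and 0.402, below the vehicle range in all but daily 5, while weekly 1 alone among the weekly libraries lay within that range.

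**Figure D5:**
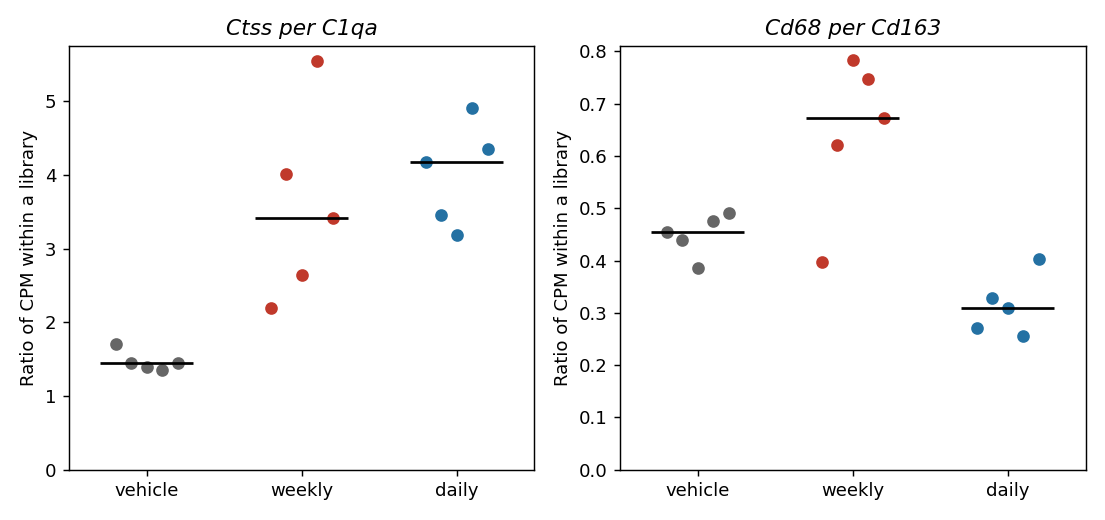
Ratio of CPM within each library for Ctss per C1qa (left) and Cd68 per Cd163 (right), with a bar at the median of each group; both axes start at 0. Ctss per C1qa is 1.35 to 1.71 in vehicle, 2.19 to 5.54 in weekly and 3.18 to 4.91 in daily libraries.

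Other myeloid genes were read from lists outside the 32. Their counts stand beside the shares of all genes called in the same fit, 6.99% rising and 1.07% falling in weekly and 1.76% and 2.13% in daily against vehicle, and 0.484% and 8.24% from weekly to daily. Of 36 further phagocyte genes, 34 were tested; 4 rose and 1 fell in weekly against vehicle, 0 rose and 2 fell in daily against vehicle (median changes 0.31 and -0.01). Siglec1, the sialic acid receptor CD169 of resident macrophages, had 27.1 to 30.7 CPM in vehicle, 6.14, 9.32, 11.5, 33.1 and 11.5 CPM in weekly 1 to 5 and 12.7, 20.9, 9.14, 13.2 and 15.1 CPM in daily 1 to 5. It fell by 1.21 in weekly (SE 0.29, limma adjusted p = 0.0117, BH) and by 1.03 in daily libraries (SE 0.29, adjusted p = 0.0457), although weekly 4 lay above the vehicle range. Of 20 genes linked to alternative activation, 17 were tested; 0 rose and 6 fell in each comparison with vehicle, and these comparisons share the vehicle libraries. Lyve1, a hyaluronan receptor of vessel-associated macrophages and lymphatic vessels, measured 9.95 to 12.6 CPM in vehicle, 2.40, 3.35, 3.62, 8.99 and 5.42 CPM in weekly 1 to 5 and 1.94, 3.40, 2.48, 3.77 and 4.85 CPM in daily 1 to 5. All 10 prednisone libraries lay below the vehicle range, weekly 4 included, with changes of -1.29 and -1.69 (SE 0.27, limma adjusted p = 0.00384 and 0.000545, BH). Of 14 classical activation genes 6 were tested, with median changes of 0.10 in weekly and -0.15 in daily libraries.

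Of 16 genes reported in lipid-associated macrophages, all tested, 9 rose in weekly and 1 in daily libraries against vehicle, and 8 fell from weekly to daily. Lpl, Plin2, Cd36 and Fabp5 among them are also expressed by adipocytes. Of 10 adipocyte markers, 5 rose in weekly and 5 fell in daily libraries against vehicle, and 9 fell from weekly to daily; their summed level was 2030 to 2220 CPM in vehicle, 1920 to 5090 CPM over the weekly libraries, and 905 to 1580 CPM over the daily ones. Fabp5, a fatty acid carrier, measured 6.41 to 8.41 CPM in vehicle and 10.9, 15.5, 33.0, 47.5 and 33.7 CPM in weekly 1 to 5. The part of adipocytes in these values was not tested. Among 14 growth and recruitment ligands, 10 were tested; 2 rose and 0 fell in weekly, and 1 rose and 2 fell in daily against vehicle. Ccl8, a monocyte chemoattractant, fell by 1.59 in daily libraries (SE 0.33, limma adjusted p = 0.00549, BH).

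Markers of other blood cells bear on the members that these cells also express, such as Itgam, Itgb2 and Fcer1g. Of 12 neutrophil markers 1 had values, Csf3r, at 3.66 to 5.03 CPM in vehicle, 1.2 to 8.99 CPM over the weekly libraries, and 1.24 to 4.99 CPM over the daily ones; the other 11 were not analysed here. Of 13 T and NK cell markers 0 and of 7 B cell markers 1 had values. Mast cell markers summed to 25.8 to 32.6 CPM in vehicle (5 of 7 with values), 10.1 to 20.7 CPM over the weekly libraries, and 7.28 to 11.1 CPM over the daily ones; 4 of the 5 fell in each comparison with vehicle. Of 11 dendritic cell markers 9 were tested, and Itgax, an integrin chain that macrophages share, rose in weekly against vehicle by 1.51 (SE 0.34, limma adjusted p = 0.00865, BH). The part of these cells in the members' values was not tested.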

How the data were processed

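RNA of quadriceps was sequenced in 15 libraries. The submitters' processing notes name TopHat2 2.1.0, HTSeq, edgeR and the mm10 (GRCm38) build; no source used here says if counting was stranded. The authors deposited a single table in CPM, although the labels name RPKM: all 222090 of 222090 values are whole multiples of the value of 1 read, within 0.01 reads. Features without a gene name, 534 of 14806, held 0.276% to 0.447% of reads and were left out.

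Tests used limma 3.58.1 (R 4.3.3, mean-variance trend) on log2(CPM + 0.5), in a single fit of all 15 libraries with group as the only term, for genes with at least 1 CPM in at least 5 libraries (14059 of 14272). Fold changes on this scale understate changes of low genes. P-values were BH-adjusted over all genes. The pseudocount, the filter, scaling (TMM, quantile), libraries left out, edgeR 4.0.16 and DESeq2 1.42.0 on recovered reads were tried as alternatives; the steps were tested on simulated data. Depth was 2780768 to 11052552 reads per library, and floors of 3 reads cover counting error only.

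The members and the gene lists were chosen with earlier results of these data known. Values by library were given for called members, the 2 members of each role with the smallest p, the C1q genes, Tyrobp and Fcer1g, and for others where stated; at most 3 genes of another list were named. Positions are from GENCODE M21 on GRCm38, and exon lengths are the summed annotated exons.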

Additional observations from a re-analysis of the deposited data

Results flagged for a closer look

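A sample was far from the other 4 of its group, by Dixon's ratio of gap to range above 0.71, in 15 of 96 groups of a member's 5 values; chance gives about 1 in 20. Weekly 1 was low for Cd53 (3.74 CPM), Cd84 (6.41 CPM), Mrc1 (38.6 CPM), Fcgr2b (14 CPM) and Cd68 (7.21 CPM). Weekly 4 was high for Cx3cr1 (13.7 CPM), Cd14 (89.5 CPM) and Fcgr1 (14 CPM). Daily 3 was low for Ptprc (22.6 CPM), C1qc (5.89 CPM) and Fcer1g (2.32 CPM). The median of all genes in daily 3 was also low on the deposited scale (-0.53 in log2 relative to vehicle). The vehicle libraries lie so close together that small gaps also stood out: vehicle 2 was high for Laptm5 (37.6 CPM) and Aif1 (1.87 CPM), and vehicle 4 for Cd14 (7.41 CPM) and Cd163 (29.1 CPM).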

How the results depend on the processing

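Values here are members called, with those that rose and fell, or log2 changes. Of 2940 recomputed values, 2511 kept direction and side of the threshold, 164 passed it newly, 21 lost it, 235 moved beyond the replicate spread or 1.5-fold, and 9 turned sign; DESeq2 values without a p are not counted.

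Weekly against vehicle gave 1 member with all libraries. It gave 2 with a 5 CPM filter or quantile normalization, 4 with edgeR, 3 of 24 with DESeq2, 6 with array weights, 13 without weekly 1 and weekly 4 (16 with TMM scaling as well), 10 with TMM scaling without weekly 4 and 10 without daily 3 and weekly 4. Daily against vehicle gave 0, and 1 with array weights, 10 without weekly 1 and weekly 4 (15 with TMM), 10 with TMM without weekly 4, 8 without daily 3 and weekly 4, and 10 in the fit of the 2 groups. Daily against weekly gave 1, and 0 with array weights, with TMM without daily 3 or in the fit of the 2 groups, 5 without weekly 1 and weekly 4 (6 with TMM), 9 with TMM without weekly 4 and 4 without daily 3 and weekly 4. Its median was 0.27 with TMM without weekly 4 and 0.19 without daily 3 and weekly 4.

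Over all genes, weekly against vehicle gave 1133, against 1904 (DESeq2), 1811 (array weights), 2404 (TMM without weekly 4), 2586 (TMM without weekly 1 and weekly 4) and 3340 (without daily 3 and weekly 4). Daily against vehicle gave 547, against 1277 (TMM), 1290 (quantile), 1332 (edgeR), 1596 (DESeq2), 1195 (array weights), 1705 (without weekly 1 and weekly 4), 2990 and 3477 (the same TMM settings in order), 2422 (without daily 3 and weekly 4), 1009 (TMM without daily 3) and 1665 (the 2 groups). Daily against weekly gave 1227, against 663 (TMM), 702 (quantile), 747 (edgeR), 560 (array weights), 1973 (without weekly 1 and weekly 4), 1883 (TMM without weekly 4), 2044 (without daily 3 and weekly 4), 419 (TMM without daily 3) and 228 (the 2 groups).

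Leaving out each replicate in turn gave 1 to 10, 0 to 9 and 0 to 5 members, 645 to 2251, 347 to 1478 and 521 to 1888 genes, and member medians of -0.06 to 0.57, -0.04 to 0.20 and -0.61 to 0.04, in the order of comparisons above. C1qa in weekly against vehicle ranged from -0.54 to 0.28 over these. Without weekly 4, C1qa in weekly against vehicle turned to -0.54 (also -0.54 without daily 3 as well, -0.68 with TMM, -0.53 with TMM and no weekly 1). With TMM scaling without weekly 4, Fcgr1 turned to -0.57 (from 0.11) and Tyrobp to -0.78 (from 0.00) in weekly against vehicle. In daily against weekly Csf1r turned to 0.44 (from -0.33), Msr1 to 0.72 (from -0.02) and Lyz2 to 0.59 (from -0.19). Each starting value, from the main fit of all libraries, was smaller than its SE, as was the 0.00 of C1qa. The cause was not tested.

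The labels do not say that replicate numbers pair the samples. Correlations of same-numbered deviations ran from -0.029 to 0.146, which does not exclude pairing. With a replicate block 3 members were called for weekly (Itgb2, Gpnmb and Cd14) and 0 for daily against vehicle, and 1 between the regimens. The settings without daily 3 were chosen after seeing the data. Depth limits weekly 4 most, where 3 reads are 1.08 CPM.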
